A study of Mus musculus with 2 samples.

Results

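Serpin genes encode a large family of protease inhibitors, and 32 of them had at least 1 methylated region in liver DNA of Pemt-/- or Pemt+/+ mice. They were taken as every autosomal gene in the longer region list of each mouse whose symbol is Serpin followed by a clade letter from a to i, a number and optional letters. The 32 were part of 14073 autosomal genes with a listed region, and 25 of them (78.1%) were listed in the Pemt-/- mouse and 31 (96.9%) in the Pemt+/+ mouse, against 90.9% and 97.8% of the 14073. Of the 32, 1 was listed in the Pemt-/- mouse only, beside 2.22% of all listed genes, and 7 in the Pemt+/+ mouse only, beside 9.15%. A listed serpin gene averaged 1.36 and 1.68 regions in the Pemt-/- and Pemt+/+ mouse, against 4.11 and 5.23 for all listed genes. These shares of genes are therefore not directly comparable. Of the 32, 17 belonged to clades a, f and g, called liver-secreted here, 12 to clade b and 3 to clades e, h and i. The name liver-secreted follows the clade letter only and does not hold for every member, such as the pseudogene Serpina3h. Secretion of the members by the liver was not checked.

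Pemt encodes phosphatidylethanolamine N-methyltransferase, the liver enzyme that makes phosphatidylcholine with S-adenosylmethionine as methyl donor. Liver DNA was sequenced as 1 Pemt-/- and 1 Pemt+/+ library, each called a mouse here. The labels state high fat-high sucrose (HFHS) feeding of both from 5 to 25 weeks of age. The methods of the study describe male animals, and for this assay several mice per genotype and shorter feeding. The age at sampling and the number of mice behind each library are therefore uncertain. The strain and the way the Pemt-/- allele was made are not given in the sources used here. Methylated fragments were enriched with a methyl-CpG-binding protein and sequenced, and regions with more tags (mapped reads) than background were listed. With 1 library per genotype there was no replicate, no statistical test was possible, and genotype, sequencing depth and individual mouse cannot be told apart. Library totals were not known, so every serpin value is read beside that of all autosomal genes in the same lists. Over all genes the Pemt-/- list was shorter, with 46362 regions and 748344 tags against 63124 regions and 1352191 tags. A methylated region does not measure RNA, so these lists check neither the tissue nor the genotype.

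Serpins act as bait: a protease cuts an exposed loop, the serpin changes shape, and the enzyme is trapped in an inactive complex. The liver secretes many clade a serpins and their relatives into plasma, where they restrain neutrophil elastase, clotting factors, plasmin and complement proteases. Clade b serpins mostly stay inside cells, where they limit proteases such as granzymes and cathepsins. In the mouse the Serpina1, Serpina3, Serpinb6 and Serpinb9 genes have been duplicated into clusters of similar copies.

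The capture depends on methylated CG dinucleotides, so promoter windows of 6 serpin genes are shown first, chosen to span the range of CG content in the family and the copies on which the results turn. Each runs 5′ to 3′ from 250 bases before to 50 bases after the RefSeq gene start in GRCm38.p6, and CG is in capitals. Serpina1b and Serpina1e are copies of the elastase inhibitor alpha-1 antitrypsin, Serpina3c is the gene with a region nearest its start, Serpinb5 stands for clade b, Serpinh1 for the small clades with a listed region, and Serpine2 has the most CG of any serpin window while having no listed region.
Serpina1b: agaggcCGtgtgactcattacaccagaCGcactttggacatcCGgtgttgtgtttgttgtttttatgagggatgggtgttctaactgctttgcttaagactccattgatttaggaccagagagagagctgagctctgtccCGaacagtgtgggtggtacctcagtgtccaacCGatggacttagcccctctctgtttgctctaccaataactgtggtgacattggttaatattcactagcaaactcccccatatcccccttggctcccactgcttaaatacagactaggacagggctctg
Serpina1e: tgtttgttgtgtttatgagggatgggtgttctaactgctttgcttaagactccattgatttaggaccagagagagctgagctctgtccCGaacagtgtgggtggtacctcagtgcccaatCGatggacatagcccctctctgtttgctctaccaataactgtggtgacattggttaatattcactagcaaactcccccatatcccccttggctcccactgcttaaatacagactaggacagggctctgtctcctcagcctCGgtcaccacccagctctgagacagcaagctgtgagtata
Serpina3c: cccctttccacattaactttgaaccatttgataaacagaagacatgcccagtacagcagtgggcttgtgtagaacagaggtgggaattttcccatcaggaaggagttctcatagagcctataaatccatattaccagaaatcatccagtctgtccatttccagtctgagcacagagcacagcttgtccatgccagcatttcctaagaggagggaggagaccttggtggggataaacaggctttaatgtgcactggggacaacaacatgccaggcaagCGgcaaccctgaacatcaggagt
Serpinb5: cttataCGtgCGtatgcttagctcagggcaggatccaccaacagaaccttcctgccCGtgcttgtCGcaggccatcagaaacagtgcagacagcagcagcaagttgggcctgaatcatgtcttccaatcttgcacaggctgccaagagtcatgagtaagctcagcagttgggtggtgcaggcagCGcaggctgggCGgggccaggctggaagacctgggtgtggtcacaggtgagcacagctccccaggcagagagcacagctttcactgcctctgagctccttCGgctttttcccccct
Serpinh1: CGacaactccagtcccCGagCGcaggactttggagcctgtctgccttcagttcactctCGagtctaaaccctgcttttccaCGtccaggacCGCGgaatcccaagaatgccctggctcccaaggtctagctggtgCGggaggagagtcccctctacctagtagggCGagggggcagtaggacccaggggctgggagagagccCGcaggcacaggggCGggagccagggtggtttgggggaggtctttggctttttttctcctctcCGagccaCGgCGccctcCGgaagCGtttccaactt
Serpine2: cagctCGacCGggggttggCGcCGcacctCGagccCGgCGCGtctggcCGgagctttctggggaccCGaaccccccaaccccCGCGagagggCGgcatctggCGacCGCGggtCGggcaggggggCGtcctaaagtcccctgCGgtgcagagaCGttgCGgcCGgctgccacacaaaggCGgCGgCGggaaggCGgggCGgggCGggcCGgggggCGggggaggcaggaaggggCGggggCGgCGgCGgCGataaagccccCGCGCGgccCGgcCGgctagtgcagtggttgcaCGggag
These windows lie on the minus strand, except for Serpinb5 on the plus strand, at chr12:103738140-103738439, chr12:103956848-103957147, chr12:104153823-104154122, chr1:106860925-106861224, chr7:99353190-99353489 and chr1:79858616-79858915 in the printed order. They hold 5, 3, 1, 7, 16 and 41 CG. The 7 of Serpinb5 are above the clade b median of 2, so its CG content is not typical of that clade. The motif searched was CG, which reads the same on both strands, and 94.8% of 31396 autosomal windows held at least 1. The Serpina1a to Serpina1e windows were 63.5% to 91.4% identical over 10 pairs. Their annotated starts do not all fall at the same place, and reads from such copies can be placed on the wrong one, so values within the Serpina1, Serpina3 and Serpinb9 copies are uncertain.

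Serpin promoters were poor in CG. The median over genes with a window, taking the richest window of a gene, was 4 for the liver-secreted clades, 2 for clade b and 15 for clades e, h and i, against 15 for all autosomal protein-coding genes. Of 53 serpin genes with a window, 40 (75.5%) had 5 or fewer CG, and 4899 of 16456 protein-coding genes (29.8%) did. Clade b reached from 0 to 25 CG and the liver-secreted clades from 0 to 11. Serpin genes with a region listed under their symbol had a median of 4 CG and those without had 3, while the medians for all genes were 19 and 9. CG content therefore separated listed from unlisted serpins less than it did for genes at large, as a description without a test.

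**Figure D1:**
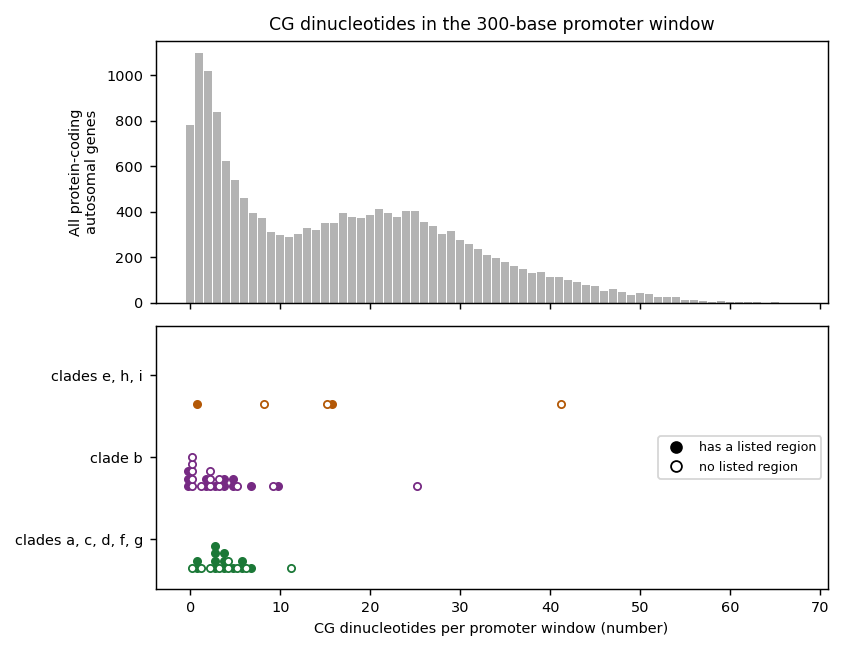
Number of CG dinucleotides in the 300-base promoter window, as a histogram over all autosomal protein-coding genes (top, number of genes) and as 1 dot per serpin gene in 3 clade groups (bottom). Filled dots have a listed region in either mouse and open dots have none, and most serpin dots lie at the low end, with Serpine2 at 41.

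The RefSeq gene table holds 63 autosomal serpins. Of these, 17 of 29 (58.6%) in the liver-secreted clades and 12 of 28 (42.9%) in clade b had a region under their symbol in either mouse, beside 11962 of 20661 autosomal protein-coding genes (57.9%). Serpina3j stood in the lists under an older symbol, outside the rule, and with it 18 of the 29 (62.1%) had one. Clades e, h and i had 3 of 6. All 32 listed serpins matched the table by gene ID.

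Several of the best known plasma serpins had no listed region in either mouse. Serpinc1 (antithrombin) and Serpind1 (heparin cofactor), the only members of clades c and d, had none. Neither had Serpina1a, Serpina3k, Serpina6 (corticosteroid-binding globulin) or Serpina10 (inhibitor of factor Xa with protein Z), nor Serpina16, Serpina1f, Serpina3a, Serpina3b and Serpina3i. In clade b, Serpinb1a, Serpinb6a, Serpinb8, Serpinb10, Serpinb13, Serpinb1b, Serpinb1c, Serpinb3a, Serpinb3d, Serpinb6d, Serpinb6e, Serpinb7, Serpinb9c, Serpinb9f, Serpinb9g and Serpinb9h had none. Serpine2 (protease nexin), Serpine3 and Serpini1 (neuroserpin) had none. Absence from the lists does not show that these genes were unmethylated.

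In the liver-secreted clades, 20 regions with 340 tags were listed in the Pemt-/- mouse and 28 regions with 578 tags in the Pemt+/+ mouse. Clade b had 7 regions with 159 tags and 14 regions with 328 tags. A serpin gene had on average 1.36 regions in the Pemt-/- mouse and 1.68 in the Pemt+/+ mouse, against 4.11 and 5.23 for all genes. The median serpin region held 13 and 15 tags, close to the 13 and 17 of all regions. Serpin genes thus had fewer regions per gene than the average listed gene, with regions of similar size. Listed serpin genes were also shorter, with a median of 10.1 kb against 22.5 kb, and the part of gene length in the number of regions was not tested.

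**Figure D2:**
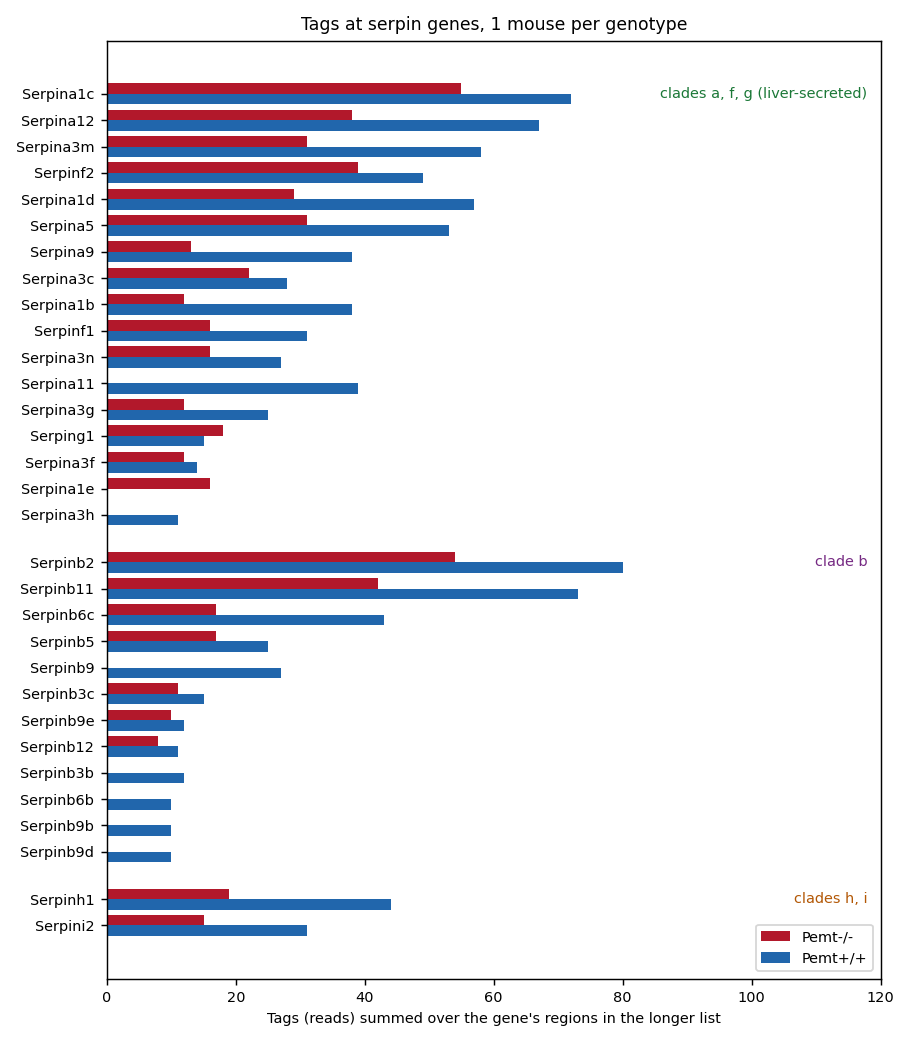
Tags summed over the regions of the serpin genes described in the text, in the longer list of the Pemt-/- mouse (red) and the Pemt+/+ mouse (blue), 1 library per genotype. Bars start at 0, and Serping1 and Serpina1e are the only genes with more tags in the Pemt-/- mouse.

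The alpha-1 antitrypsin genes lie on chromosome 12 (mm9 coordinates here and for all regions). Serpina1c had 2 regions in each mouse, both upstream, beginning 4118 and 9607 bp from its start in the Pemt-/- mouse, with 55 tags there and 72 in the Pemt+/+ mouse. Serpina1d had 29 tags in 1 region and 57 tags in 2, of which the stronger began 9520 and 9540 bp beyond its 3′ end. Serpina1b had 12 tags in 1 region and 38 in 2, all downstream. Serpina1e was the only serpin listed in the Pemt-/- mouse alone, with 1 region of 16 tags inside the gene. Serpina1a had no region. Serpina1b, Serpina1c and Serpina1d held more tags in the Pemt+/+ mouse, the direction of the whole lists, and Serpina1e did not.

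The Serpina3 genes, relatives of antichymotrypsin, lie further along the same cluster. Serpina3m had 31 tags in the Pemt-/- mouse and 58 in the Pemt+/+ mouse, in 2 upstream regions each. Serpina3n, an acute-phase inhibitor, had 1 region in each mouse 9128 and 9168 bp downstream, with 16 and 27 tags. Serpina3c had 2 regions upstream in each mouse, with 22 and 28 tags. A region shared by Serpina3f and Serpina3g, downstream of the first and inside the second, held 12 and 14 tags, and Serpina3g and Serpina3h (a transcribed pseudogene) shared a further region of 11 tags in the Pemt+/+ mouse only. These regions were counted once in each sum.

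Among the other clade a genes, Serpina12 (vaspin, an adipokine) had 38 tags in 2 regions in the Pemt-/- mouse and 67 tags in 4 regions in the Pemt+/+ mouse. Serpina5 (protein C inhibitor) had 31 and 53 tags in 1 region each, 6349 and 6367 bp downstream. Serpina9, expressed in germinal centre B cells, had 13 tags in 1 region and 38 in 3. Serpina11 had no region in the Pemt-/- mouse and 4 in the Pemt+/+ mouse, with 39 tags in all, and a pair of these regions also lay downstream of or inside Serpina9. Serpina11 was therefore the gene with the most tags among those listed in the Pemt+/+ mouse alone.

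The remaining listed genes of the liver-secreted clades were Serping1, Serpinf1 and Serpinf2. Serping1 (the complement C1 inhibitor) had 18 tags in 2 regions in the Pemt-/- mouse and 15 in 1 region in the Pemt+/+ mouse. Serpinf2 (the main plasmin inhibitor) had 39 tags in 2 regions and 49 in 1, with its strong region 5452 and 5466 bp upstream. Serpinf1 (pigment epithelium-derived factor, which does not inhibit proteases) had 16 tags in 2 regions and 31 in 3, and none of its regions overlapped between the mice. The closest of them lay 142 bp apart inside the gene, at bases 75229637 to 75229994 of chromosome 11 in the Pemt-/- mouse and 75229137 to 75229495 in the Pemt+/+ mouse. In the Pemt-/- mouse a region of 8 tags lay both upstream of Serpinf1 and downstream of Serpinf2.

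In clade b, the region with the most tags was downstream of Serpinb2 (plasminogen activator inhibitor type 2). It spanned bases 109423200 to 109423793 of chromosome 1 with 54 tags in the Pemt-/- mouse, and 109422959 to 109423781 with 80 tags in the Pemt+/+ mouse. Serpinb11 had 42 tags in 1 region and 73 tags in 2, all downstream. Serpinb6c had 17 and 43 tags and Serpinb5 (maspin) 17 and 25, in 1 downstream region each. Serpinb3c had 11 and 15 tags, Serpinb9e 10 and 12, and Serpinb12 8 and 11. Serpinb9 (the granzyme B inhibitor) with 27 tags in 2 regions and Serpinb3b, Serpinb6b, Serpinb9b and Serpinb9d with 10 to 12 tags in 1 region each were listed in the Pemt+/+ mouse only. They were 5 of the 12 clade b genes, beside 9.15% of all listed genes. Clade b genes averaged 1 region in the Pemt-/- mouse and 1.17 in the Pemt+/+ mouse, against 4.11 and 5.23 for all genes. Their gene counts are therefore not directly comparable. By region, 50% of clade b regions in the Pemt+/+ mouse were listed there only, beside 39.6% of all. With lists of equal size, clade b had 7 genes in each mouse.

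Clades h and i held genes with other roles. Serpinh1, a chaperone for collagen, had 19 tags in 2 regions in the Pemt-/- mouse and 44 in 3 regions in the Pemt+/+ mouse. Serpini2, a pancreatic serpin, had 15 and 31 tags in 1 region inside the gene. Both genes had more tags in the Pemt+/+ mouse.

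Serpin regions lay outside transcripts more often than the regions assigned to genes at large. Of 32 serpin regions in the Pemt-/- mouse, 13 (40.6%, Wilson 95% interval 25.5 to 57.7) were inside a serpin transcript, as were 20 of 48 (41.7%, 28.9 to 55.7) in the Pemt+/+ mouse, against 81.9% and 81.6% of the regions of all genes inside or overlapping any transcript. Over all autosomal regions, those without a gene within 10 kb included, these shares were 39.7% and 39.9%, near those of the serpin regions. In the Pemt-/- mouse 1 serpin region, and in the Pemt+/+ mouse 5, also lay within 10 kb of a gene outside the family, Mtap6 beside Serpinh1 or Smyd4 beside Serpinf1. These intervals, like the others given, cover counting error only, and neighbouring regions are not independent. By group, 6 of 20 and 11 of 28 regions of the liver-secreted clades were inside, and 2 of 7 and 4 of 14 in clade b, while clades e, h and i went the other way with 5 of 5 and 5 of 6. Counting each region once per gene relation, 10 lay upstream and 11 downstream in the Pemt-/- mouse, and 14 and 18 in the Pemt+/+ mouse. Liver-secreted and clade b genes therefore had a lower share inside transcripts than the regions assigned to all genes. The part of their shorter lengths in it was not tested.

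No serpin region overlapped a transcript start in either mouse. A region over a start or ending within 1 kb upstream of one was found at 2 of 25 listed serpin genes in the Pemt-/- mouse, where 5.31% of all listed autosomal genes had one, and at 1 of 31 in the Pemt+/+ mouse, where 6.70% did. Regions that begin inside a transcript have no distance to its start in the lists and are not counted. Serpina3c had such a region in both mice, 266 bp upstream with 9 tags and 285 bp upstream with 10 tags, next to the promoter window with 1 CG shown above. Serping1 had one 773 bp upstream with 9 tags in the Pemt-/- mouse only, and the nearest Pemt+/+ region lay 6322 bp away. Clade b had none in either mouse. Counts of 2, 1 and 0 are too few to set serpins apart from other genes.

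The clusters could be followed along the chromosomes. Between the first and last serpin region of the clade a cluster, 0.704 Mb of chromosome 12 from 104958461 to 105662216, there were 30 regions (42.6 per Mb) in the Pemt-/- mouse and 37 (52.6 per Mb) in the Pemt+/+ mouse, of which 15 and 23 were assigned to a member gene, or 17 and 26 with the regions of Serpina3j under its older symbol. The autosomes as a whole had 39.6 and 53.5 per Mb. The clade b cluster of chromosome 1, 0.639 Mb from 108784627 to 109423793, had 9 (14.1 per Mb) and 13 (20.3 per Mb). The clade b cluster of chromosome 13, 0.919 Mb from 33050487 to 33969214, had 20 (21.8 per Mb) and 35 (38.1 per Mb). Only 2 and 7 of these were assigned to a serpin gene in the lists. The clade a cluster thus had a density near that of the autosomes, and both clade b clusters had a lower one in each mouse. The spans were set by the outermost serpin regions, and no test was made.

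**Figure D3:**
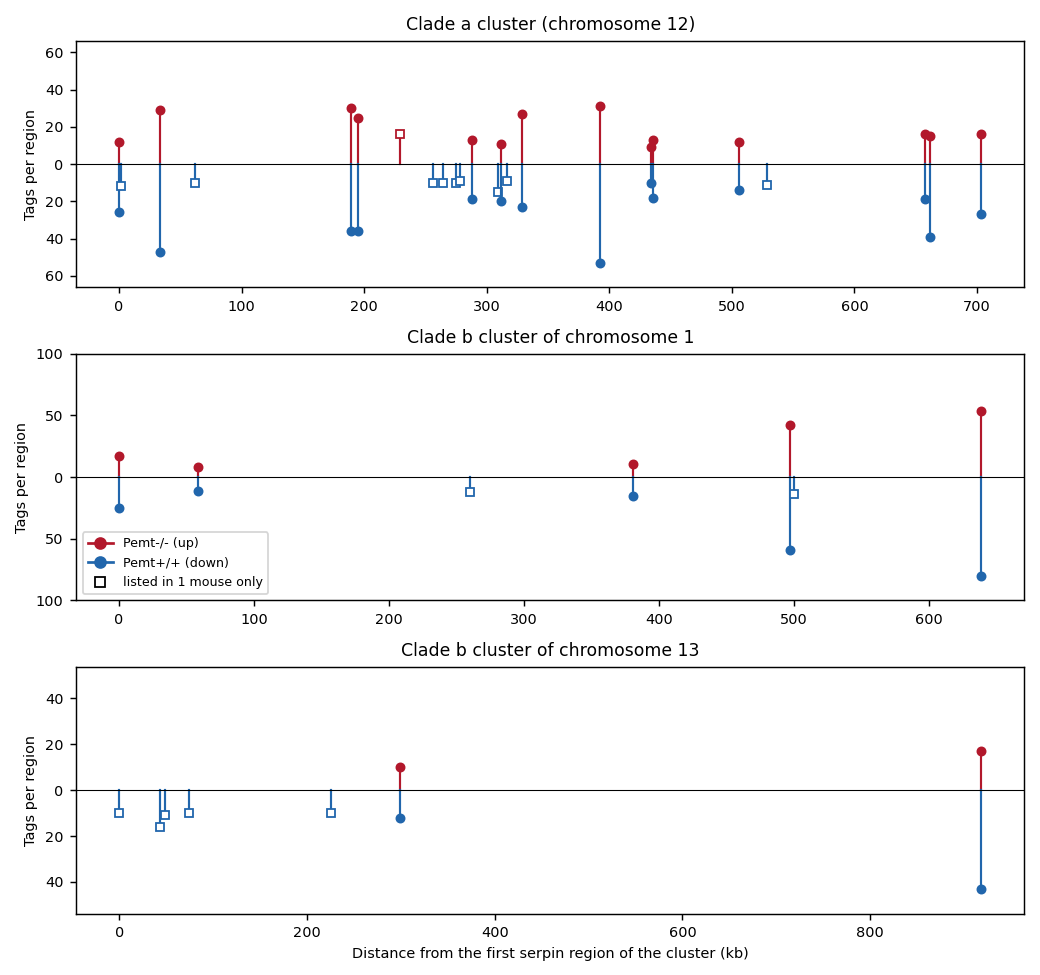
Methylated serpin regions along the clade a cluster and both clade b clusters by distance from the first serpin region in kb, with tags per region upward for the Pemt-/- mouse and downward for the Pemt+/+ mouse and open squares for regions listed in 1 mouse only. Only regions of the 32 genes are drawn, and the clade b cluster of chromosome 13 has a stretch of 618 kb without a serpin region in both mice.

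Most serpin regions of the Pemt-/- mouse were also present in the Pemt+/+ mouse. Of 32, 27 (84.4%, 68.3 to 93.1) shared 1 bp or more with a Pemt+/+ region, against 82.3% of all regions, and 27 of 48 Pemt+/+ regions (56.3%, 42.3 to 69.3) overlapped a Pemt-/- region, against 60.4%. The liver-secreted clades had 16 of 20 (80.0%, 58.4 to 91.9) and 16 of 28 (57.1%, 39.1 to 73.5), and clade b had 7 of 7 (100%, 64.6 to 100) and 7 of 14 (50%, 26.8 to 73.2). The intervals of both groups include the values of all genes. Read the other way, 5 of 32 regions (15.6%) were listed in the Pemt-/- mouse only, beside 17.7% of all regions, and 21 of 48 (43.8%) in the Pemt+/+ mouse only, beside 39.6%. These regions were small, from 8 to 16 tags in the first case and 9 to 16 in the second, with medians of 9 and 10 against 15 and 25 for the shared serpin regions. Absence from a list at these tag counts does not show that methylation was absent.

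**Figure D4:**
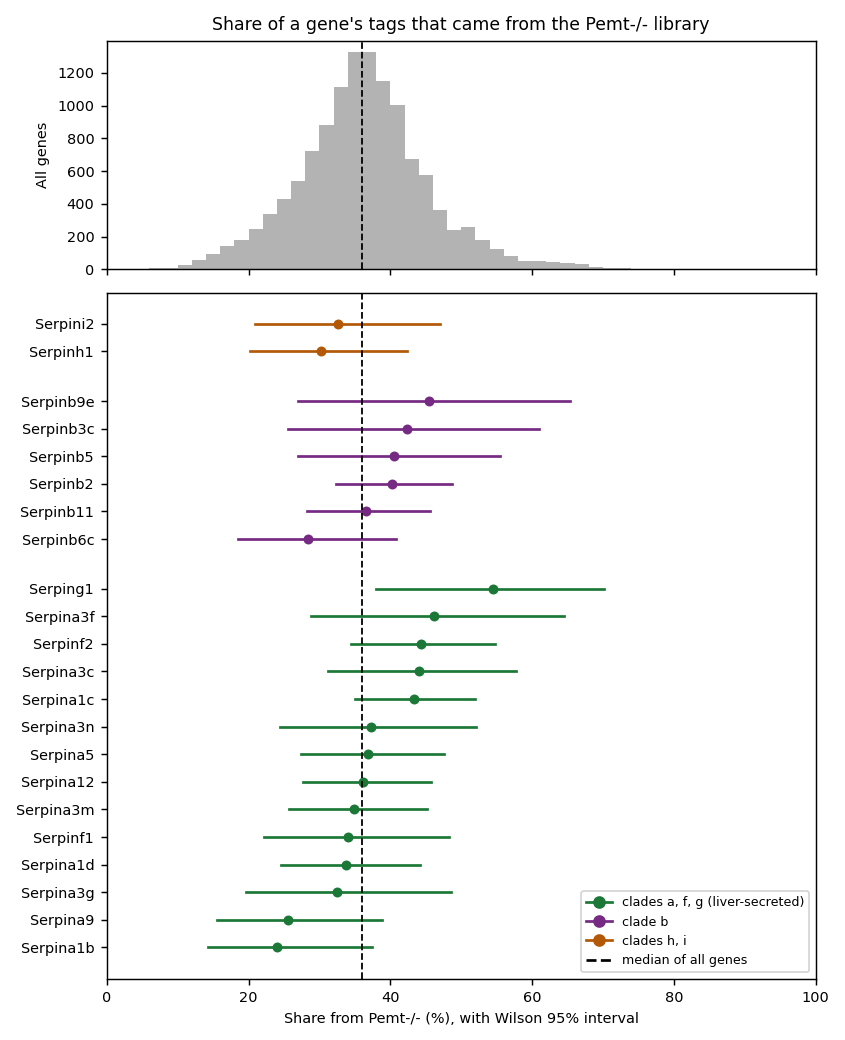
Percent of tags from the Pemt-/- mouse at the serpin genes described in the text that were listed in both mice with 20 tags or more in sum (dots with Wilson 95% intervals, counting error only), beside the distribution over all such autosomal genes. Most dots lie around the median of all genes at 36.1%, and only the interval of Serping1 leaves it out.

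Summed over both mice, 37.0% (34.0 to 40.2) of the tags of the liver-secreted clades came from the Pemt-/- mouse, and 32.7% (28.6 to 36.9) of those of clade b. The share was 35.2% (32.8 to 37.6) over all serpins and 35.6% over all genes. Both group intervals include 35.6%, and they overlap. Per gene, over 23 serpins listed in both mice with at least 20 tags, the median share was 36.5%, against 36.1% over 12354 genes. By group this median was 36.55% over 14 liver-secreted genes and 40.4% over 6 clade b genes, the reverse order of the summed tags. In paired regions only, the shares were 39.9% and 39.4%. Serping1 had 54.5% (38.0 to 70.2), above 96.4% of genes, with 9 of its 18 Pemt-/- tags in the region upstream of its start. The only Serping1 region present in both mice had 9 against 15 tags, a share of 37.5% (21.2 to 57.3). Serpina1b had 24.0% (14.3 to 37.4), above only 8.89% of genes. Of the 23 intervals, 22 included the median of all genes. The matching share over the 12354 genes was not determined, so Serping1 is not read as an exception.

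**Figure D5:**
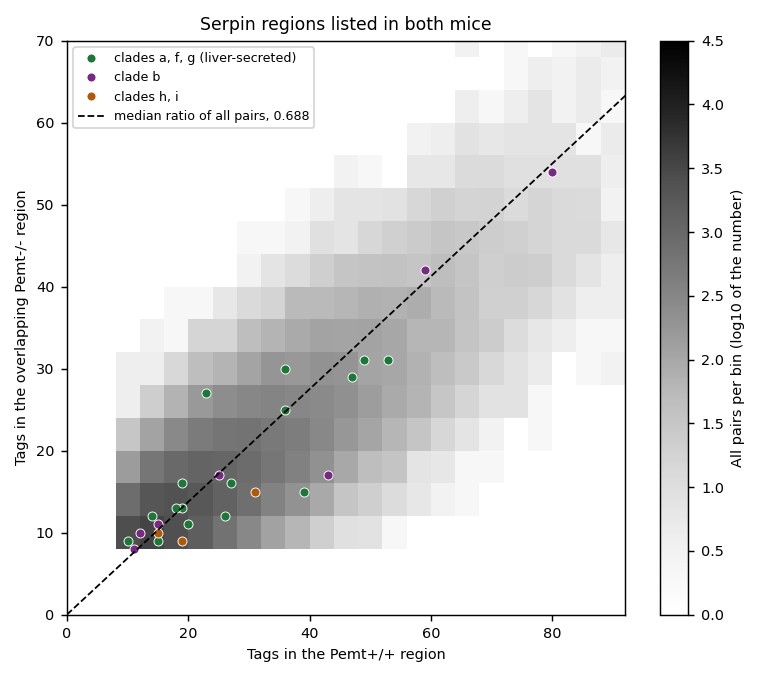
Tags of paired regions of the serpin genes described in the text, in the Pemt-/- mouse (vertical) against the Pemt+/+ mouse (horizontal) on linear axes, coloured by clade group, over the density of all paired regions in grey (log10 of the number per bin), with a dashed line at the median ratio of 0.688. The serpin dots lie on both sides of the line, and the upstream region of Serpina12 (27 against 23 tags) is the only one with more tags in the Pemt-/- mouse.

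Regions present in both mice were also compared directly. The 27 serpin pairs had a median ratio of Pemt-/- to Pemt+/+ tags of 0.675, against 0.688 over 37433 pairs. The median was 0.658 in 16 pairs of the liver-secreted clades and 0.712 in 7 of clade b, and 11 of the 27 were above the median of all pairs. The region 4760 bp upstream of Serpina12 was the only one with more tags in the Pemt-/- mouse, 27 against 23, a ratio of 1.17 that exceeded 94.4% of all pairs. Low ratios were found upstream of Serpina3m, with 15 against 39 tags (0.385), and downstream of Serpinb6c, with 17 against 43 (0.395). Their ratios exceeded 4.21% and 4.99% of all pairs. As a share of the tags of a pair, the 95% interval included the 40.0% of all pairs at 25 of the 27 and left it out at Serpina12, on the higher side. The matching share over the 37433 pairs was not determined, so Serpina12 is not read as an exception.

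The authors' fold enrichment over background, whose scaling is not given in the sources used here, had a median ratio nearer 1 than the tags had. Its ratio had a median of 0.913 over the 27 serpin pairs and 0.941 over all pairs. At the region downstream of Serpina5 it was 42.7 in the Pemt-/- mouse and 42.3 in the Pemt+/+ mouse, where tags were 31 and 53. Downstream of Serpinb11 it was 42.4 and 40.4 with 42 and 59 tags, and at Serpinb2 35.5 and 33.1. Upstream of Serpina12 it was 32.6 and 33.2, so the higher tag count there was not matched by a higher enrichment. At Serpinb6c it was 18.5 and 29.2 and at Serpini2 it was 30.8 and 40.9, lower in the Pemt-/- mouse on both measures. A region inside Serpinh1 had the most unlike enrichment of the 27, 19.7 in the Pemt-/- mouse and 9.24 in the Pemt+/+ mouse, while its tags, 10 and 15, went the other way.

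The shorter lists, which carry a false discovery rate of their own, held 1 of the 32 serpin regions of the Pemt-/- mouse (2.22% of all regions) and 2 of the 48 of the Pemt+/+ mouse (4.72%). The Pemt-/- region was the one inside Serpina1e, bases 105187194 to 105187618 of chromosome 12, with 16 tags, a false discovery rate of 100% and no Pemt+/+ region within 15702 bp. In the Pemt+/+ mouse they were inside Serpina11, bases 105222803 to 105223104, with 10 tags and a rate of 32.4%, and 7375 bp downstream of Serpinb11, bases 109284427 to 109284730 of chromosome 1, with 14 tags and a rate of 33.2%. None of these rates is low, and Serpina1e is among the Serpina1 copies, whose values are uncertain. All 3 regions were listed in 1 mouse only. The matching share over all regions of the shorter lists was not determined, so this is not read as a serpin trait.

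Serine proteases that serpins inhibit were taken as a further list of 18 genes. Of these, 14 had a region in either mouse, beside 57.9% of all autosomal protein-coding genes. Of the 14, 10 were listed in the Pemt-/- mouse and 14 in the Pemt+/+ mouse, against 90.9% and 97.8% of all listed autosomal genes. They held 421 tags in the Pemt-/- mouse and 770 in the Pemt+/+ mouse. Thus 35.4% (32.7 to 38.1) of tags came from the Pemt-/- mouse, beside 35.6% over all genes. Among clotting proteases, prothrombin (F2) had 10 against 48 tags, F10 42 against 61 and F11 64 against 82. The complement proteases Masp1, Masp2 and C1s, which Serping1 inhibits, had 67 against 103, 69 against 85 and 23 against 66 tags. Plat, the tissue plasminogen activator, had 64 against 95. Of the neutrophil and lymphocyte proteases, Elane had 31 against 39, Prtn3 26 against 77 and Gzma 25 against 49. F12, Plau, Ctsg and Gzmb were listed in the Pemt+/+ mouse only with 10 to 29 tags, beside 9.15% of all listed genes, and F7, Klkb1, Plg and C1ra had no region. Every listed protease gene had fewer tags in the Pemt-/- mouse, as did the lists as a whole. Among those listed in both mice, some intervals of the Pemt-/- share left out the 36.1% of the median gene. F2 (17.2%, 9.64 to 28.9), Prtn3 (25.2%, 17.85 to 34.4) and C1s (25.8%, 17.9 to 35.8) lay below it. Masp2 (44.8%, 37.2 to 52.7) lay above it. The matching share over all genes was not determined, so these are not read as exceptions.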

How the data were processed

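Liver DNA was enriched for methylated fragments and sequenced as 1 Pemt-/- and 1 Pemt+/+ library. The labels mention bisulphite conversion before capture and the methods of the study do not. Per the submitters' processing notes, CASAVA 1.8.2 and Bowtie were used with mm9. The region caller, its settings, any control and the handling of duplicate or multiply placed reads are not given in the sources used here. For each mouse the authors deposited a longer and a shorter list of regions with the RefSeq transcripts within 10 kb. Deposited columns used were tag counts, a score that is a scaled negative log10 of the p-value for each region, a fold enrichment (ratio) over background and, in the shorter lists, a false discovery rate in percent. The deposited counts are not normalised and library totals are unknown.

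Each region was counted once per gene or group. Regions were shared if they overlapped by at least 1 bp, and paired if each overlapped only the other. Shares have Wilson 95% intervals. Gene shares were compared over genes listed in both mice with at least 20 tags. Names, lengths and promoter sequences came from RefSeq (GRCm38.p6), and no coordinate was converted between builds. Members and lists were chosen with earlier results of these data known. Genes named with values were preset plasma, clade b and other serpins, the 3 with the most tags per group, and those in a shorter list, near a start or in 1 mouse only. A withheld result is not reported here. Other members and regions described were chosen after their values were seen. Alternatives were the upper 50% by score, lists of equal size, regions inside transcripts only, 50% reciprocal overlap, 2 kb around starts, paired tags only and the X chromosome. Fold enrichment in place of tags was added after seeing the data. Python 3.11.15, pandas 2.3.3, scipy 1.17.1 and bedtools 2.31.1 were used, and the scripts were tested on simulated data.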

Additional observations from a re-analysis of the deposited data

How the results depend on the processing

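Of 64 alternative values, 43 stayed within the limit set for each and 21 moved. With regions inside a transcript only, genes listed fell from 15 to 6 (Pemt-/-) and 16 to 7 (Pemt+/+) in the liver-secreted clades and from 7 to 2 and 12 to 4 in clade b, the shared share of Pemt+/+ liver-secreted regions was 36.4% (all genes 60.6%), their tag share was 32.4% (all genes 35.7%) and the clade b count in the shorter Pemt+/+ list was 0. With the upper 50% by score, clade b had 4 and 5 genes, the shared shares of Pemt+/+ regions were 78.6% (liver-secreted) and 80% (clade b), above the 56.8% of all genes where the values as reported were below 60.4%, and genes near a start were 1 and 0 in the liver-secreted clades. With lists of equal size, clade b had 7 Pemt+/+ genes, shared shares were 94.1% and 75%, and tag shares from the Pemt-/- mouse were 42.4% and 38.0%, where all genes had 71.2% and 39.8%. With paired tags only, the clade b tag share was 39.4%. With fold enrichment in place of tags, chosen after seeing the data, median ratios were 0.881 and 0.930. The cause of these moves was not tested. No paired analysis was possible because there was 1 library of each genotype, and none could be left out.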

Other observations

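The gene now named Serpina3j stood in the lists as Gm4931, with the same gene ID, and was therefore not among the 32 genes. The Pemt-/- mouse had 2 regions there, 2655 bp upstream with 28 tags and 7204 bp upstream with 18 tags. The Pemt+/+ mouse had 3, 2610 bp upstream with 38 tags, 7269 bp upstream with 40 tags and a region of 12 tags inside the gene that the Pemt-/- mouse did not have. The pseudogene Serpina4-ps1, in the same cluster, had 1 region of 8 tags inside it in the Pemt-/- mouse only. Serpina7, the thyroxine-binding globulin gene on the X chromosome, had no region in either mouse.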
